A study of Mus musculus with 8 samples.

Results

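The 10 genes Cap1, Il15, Plaat1, Zfp991, Smim10l1, Calr3, Ocel1, Rbp7, Nedd1 and Atp10d read higher or lower on heart arrays labelled MT-/- than on those labelled MT+/+, with and without doxorubicin. They were chosen by that genotype difference, measured on these same arrays, so the difference itself is described here without a test. They are 10 of the 18193 genes that the array's annotation names singly. All probe sets that the platform's annotation gives to these symbols were taken. There are 20 of them among the 45101 probe sets of the array, and 17 passed the brightness filter (at least as bright as the array median on 2 or more arrays) and entered the tests. A probe set is a group of short oligonucleotides on an Affymetrix array that reads 1 stretch of a transcript.

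RNA came from whole hearts of male mice aged 6 to 8 weeks, measured on 8 one-colour arrays in 4 groups of 2 biological replicates. Either genotype received saline or doxorubicin (DOX). MT-/- is the submitters' label for mice null for metallothionein I and II, and MT+/+ for the wild type. DOX, an anthracycline that is toxic to the heart, was injected once into the body cavity at 15 mg/kg, and hearts were taken on day 4. No source used here gives the kind of null allele or the mouse strain of either genotype. In bulk tissue, fewer cells of a type and less RNA per cell cannot be told apart.

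The targeted genes were looked at first. The brighter Mt1 probe set, 1422557_s_at, read an intensity of 3817 and 4001 with MT+/+ saline, 6873 and 9224 with MT+/+ DOX, 4781 and 5137 on MT-/- saline and 12775 and 12432 on MT-/- DOX. Mt2 read 479 and 506, 1219 and 2707, 982 and 946, and 2177 and 2055 in the same order. The signal of neither gene was lower on the arrays labelled MT-/- under saline, so it does not bear out the label. Averaged over treatments Mt1 1422557_s_at was called higher on MT-/- arrays (log2 +0.50 ± 0.09, limma adjusted p 0.0425). The dimmer Mt1 probe set, 1451612_at (-0.09 ± 0.11, 0.784), and Mt2 (+0.58 ± 0.21, 0.301) were not called. Every genotype direction below is that of the labels. Whether these probe sets lie outside the altered part of the genes was not tested. Cardiac identity was clear in all groups. All 12 cardiomyocyte markers (such as Myh6, Tnnt2 and Ryr2) passed the filter, with a summed intensity between 132223 and 151661 per array and none of them called between genotypes (1 with the block). The summed level of 6 atrial markers lay between 2290 and 3641 on MT+/+ arrays and between 4808 and 7765 on MT-/- arrays. Of these 6 only Nppa was called between genotypes (log2 +1.20 ± 0.17, limma adjusted p 0.0198). It was also the only 1 of the 6 with a difference above 0, and their median was log2 -0.06. Sln (-0.62 ± 0.55) and Myl7 (-0.45 ± 0.51) had the opposite sign, so the sum does not stand for the markers as a set. The part of chamber make-up in the values below was not tested.

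1 array stood apart. The summed intensity of 12 genes that answer to handling or mark RNA quality, such as Fos, Egr1 and Hspa1a, was 5524 on MT-/- saline 1 and 10820 on MT-/- saline 2, against 6156 to 8702 on the MT+/+ arrays and 8519 to 9248 on MT-/- DOX. Leaving MT-/- saline 2 out kept all 16 averaged genotype calls described below, gave 8 under saline, 7 of them among the 13 with all arrays, and kept 5 of the 6 for DOX averaged over genotypes.

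The genes have unrelated jobs. Cap1 recycles actin, the protein of cell filaments, by helping cofilin take filaments apart and by reloading actin monomers. Il15 is a cytokine that keeps natural killer cells and memory CD8+ T cells alive, and it is handed to those cells bound to its own receptor chain Il15ra. Plaat1 cleaves and transfers the fatty acids of phospholipids, Atp10d belongs to the P4-ATPases, which flip lipids between the faces of a membrane, and Rbp7 carries retinol (vitamin A alcohol) inside cells. Nedd1 anchors the gamma-tubulin ring complex, from which microtubules grow. Calr3 is a testis relative of the chaperone calreticulin, Zfp991 is a zinc finger protein, Ocel1 carries a domain shared by occludin and the elongation factor ELL, and Smim10l1 is a small membrane protein.

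Stretches of 250 bases before annotated gene starts are shown for Cap1, Plaat1 and Calr3, which are some of the genes with large or disputed differences. Mt2 is added as a comparison, because metallothionein genes are switched on through the metal response element. They come from RefSeq (build GRCm38.p6), whose promoter table held 6 of the 10 genes with 8 windows. The core of that element was searched on both strands as TGCACNC and TGCGCNC, and matches are in capitals. Letters run 5′ to 3′ along the gene's strand.
Cap1, chr4:122886077-122886326, - strand: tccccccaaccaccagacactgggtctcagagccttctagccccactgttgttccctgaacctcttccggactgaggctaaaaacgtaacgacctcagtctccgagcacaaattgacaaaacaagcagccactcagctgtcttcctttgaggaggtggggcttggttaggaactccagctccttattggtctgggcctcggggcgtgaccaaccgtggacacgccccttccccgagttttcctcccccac
Plaat1 first start listed, chr16:29209858-29210107, + strand: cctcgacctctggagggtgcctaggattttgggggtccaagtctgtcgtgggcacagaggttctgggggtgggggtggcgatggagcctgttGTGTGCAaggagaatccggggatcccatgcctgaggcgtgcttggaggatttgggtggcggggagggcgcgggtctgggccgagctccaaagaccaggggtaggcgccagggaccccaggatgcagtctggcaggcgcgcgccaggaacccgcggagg
Plaat1 other start, chr16:29209445-29209694, + strand: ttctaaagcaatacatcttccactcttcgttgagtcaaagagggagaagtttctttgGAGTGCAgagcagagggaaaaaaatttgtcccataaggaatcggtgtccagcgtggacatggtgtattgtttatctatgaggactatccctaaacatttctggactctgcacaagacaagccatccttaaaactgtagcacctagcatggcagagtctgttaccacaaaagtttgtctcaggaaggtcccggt
Calr3 first start listed, chr8:72443779-72444028, - strand: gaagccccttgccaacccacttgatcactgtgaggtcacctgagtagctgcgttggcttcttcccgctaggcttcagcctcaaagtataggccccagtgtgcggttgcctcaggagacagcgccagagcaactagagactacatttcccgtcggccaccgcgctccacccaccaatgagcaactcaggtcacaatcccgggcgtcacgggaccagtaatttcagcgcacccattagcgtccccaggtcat
Calr3 other start, chr8:72435157-72435406, - strand: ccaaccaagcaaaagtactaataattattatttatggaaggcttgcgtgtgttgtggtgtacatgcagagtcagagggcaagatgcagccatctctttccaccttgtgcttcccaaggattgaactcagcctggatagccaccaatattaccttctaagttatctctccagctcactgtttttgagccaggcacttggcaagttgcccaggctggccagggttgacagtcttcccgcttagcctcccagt
Mt2, chr8:94172368-94172617, + strand: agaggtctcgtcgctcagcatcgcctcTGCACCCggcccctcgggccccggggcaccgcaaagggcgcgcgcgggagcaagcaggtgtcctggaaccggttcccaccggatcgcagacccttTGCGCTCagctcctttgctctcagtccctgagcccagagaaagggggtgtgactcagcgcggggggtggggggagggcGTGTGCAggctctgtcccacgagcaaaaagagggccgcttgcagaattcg
At least 1 core stood in 21.4% of the 32851 windows of this length in the table. Of the 8 member windows 2 held one, both of Plaat1, with 1 core each. The Mt1 window, not printed, also held 1 core and the Mt2 window 3. Only the 250 bases before each annotated start were searched, so cores beyond either end of a window were not counted. The Cap1 window and the Calr3 windows hold no match, nor do those of Rbp7, Smim10l1 and Ocel1, which are not printed. This says only that these letters are not in them.

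Cap1 differed most. Probe set 1417461_at read 70.2 and 49.7 with MT+/+ saline, 56.6 and 54.0 with MT+/+ DOX, 597 and 636 on MT-/- saline and 445 and 416 on MT-/- DOX. All 4 MT-/- arrays lay above all 4 MT+/+ arrays, and the lowest of the former was 5.93 times the highest of the latter. On the MT+/+ arrays this probe set lay between percentiles 29.0 and 43.5 of its array, below the middle of all signals, and on the MT-/- arrays between 88.6 and 92.6. The other Cap1 probe set, 1417462_at, read between 47.9 and 90.5 on MT+/+ arrays and between 335 and 444 on MT-/- arrays. The difference, MT-/- minus MT+/+ averaged over treatments, was log2 2.86 ± 0.10 (7.25-fold) for the former and 2.38 ± 0.12 (5.19-fold) for the latter, where the error is the limma standard error on 2 arrays per group. Ranked by size among the 24751 probe sets tested, they came at 2 and 6. So the probe sets of Cap1 gave the same direction and a similar size.

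Of the 17 member probe sets tested, 16 passed an adjusted p of 0.05 for the averaged genotype difference, 9 higher and 7 lower on MT-/- arrays, against 0.905% of all probe sets (0.44% higher and 0.465% lower); this contrast chose the genes, and nothing is read from the count. With median centring the calls over the whole array split into 141 higher and 81 lower, against 109 and 115. The 4 MT-/- arrays did not overlap the 4 MT+/+ arrays for 15 of them, against 5.74% of all tested.

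Other genes of actin turnover mostly did not follow Cap1. Of 20 tested, 1 was higher and 0 lower between genotypes, with a median of log2 +0.06 against -0.01 over all 13008 genes. With the block 2 of the 20 passed, against 4.9% of all genes. The gene called without it was Pfn1, the actin monomer binder profilin (+0.89 ± 0.15, limma adjusted p 0.0413). Coro1a (+0.44, adjusted p 0.229), the cofilin relative Dstn (+0.19, 0.295) and Actg1, cytoplasmic actin (+0.36, 0.303), did not pass without the block. After DOX, averaged over genotypes, 6 of the 20 fell and 2 rose, where 14.8% of all genes were called (1015 lower and 906 higher of 13008), with a median of -0.28 against -0.01. With the block 10 fell and 2 rose, where 28.3% of all genes were called. Among those that fell were Actb (-0.96 ± 0.10, adjusted p 6.2e-04), Actg1 (-1.09), Coro1a (-0.98) and Cfl1, cofilin itself (-0.80).

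**Figure D1:**
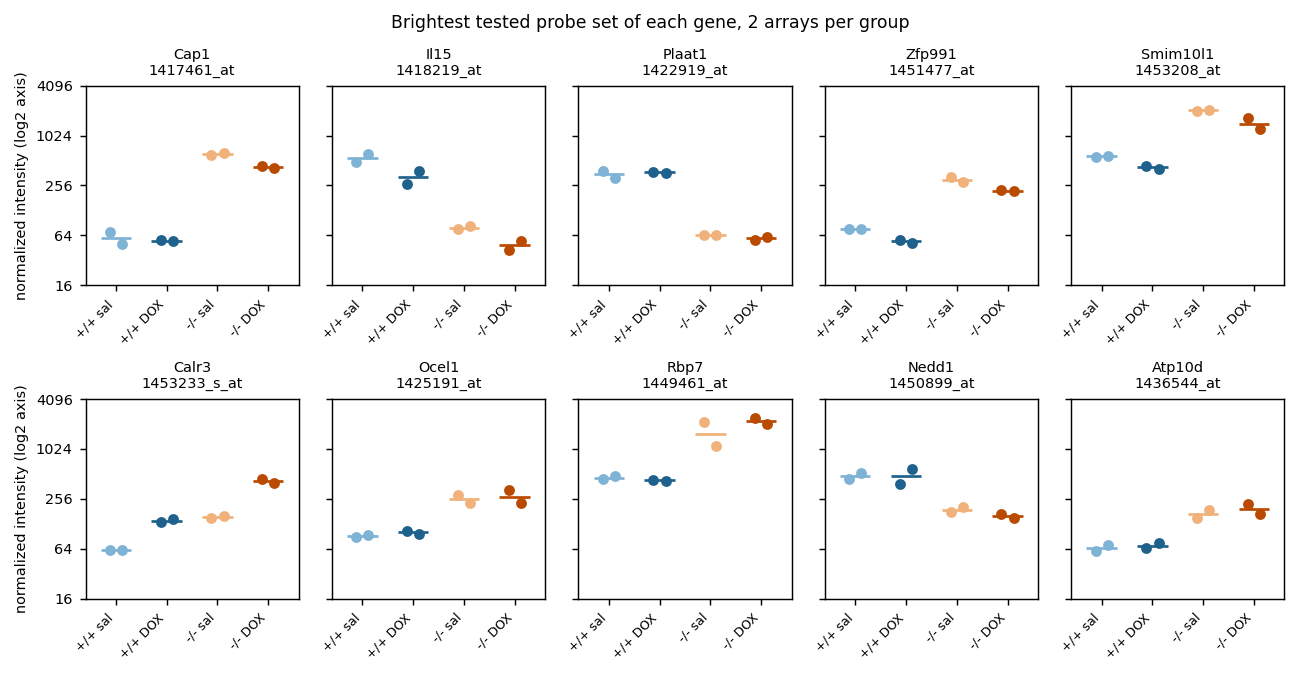
Normalized intensity (vertical axis, log2 spacing) of the brightest tested probe set of each of the 10 genes in the 4 groups; points are single arrays, 2 per group, and lines their geometric means. Cap1 lies between 49.7 and 70.2 on the MT+/+ arrays and between 416 and 636 on the MT-/- arrays, while Il15 and Plaat1 show the opposite order.

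Il15 lay low on the arrays labelled MT-/-. Its single probe set, 1418219_at, read 494 and 608 on MT+/+ saline, 270 and 381 on MT+/+ DOX, 75.5 and 83.3 on MT-/- saline and 42.8 and 54.7 on MT-/- DOX. Every MT-/- array was below every MT+/+ array, and within each genotype both DOX arrays were below both saline arrays. How many of all probe sets show the latter order was not counted, so nothing is read from it. The genotype difference was log2 -2.47 ± 0.13 (5.56-fold). With 1 probe set there is no further reading of this gene on the array.

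The rest of the interleukin 15 route did not differ between genotypes by the test. Of 14 genes tested, 0 were called either way, with a median of +0.04. The smallest p belonged to the signal carrier Stat3 (+0.26 ± 0.09, limma adjusted p 0.268), the adaptor Grb2 (-0.18, 0.489) and Irf1 (-0.20, 0.520), a transcription factor of the interferon response. Markers of T and natural killer cells were dim in these hearts: 5 of the 15 on the array passed the filter. These markers, among them Cd4 and Cd3e, are not limited to the natural killer and memory CD8+ T cells that this cytokine keeps alive. Their summed intensity was between 422 and 560 on MT+/+ arrays and between 471 and 510 on MT-/- arrays, and 0 of the 5 were called between genotypes.

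The lipid handling genes Plaat1, Rbp7 and Atp10d did not share a direction. Plaat1 read 387 and 315 on MT+/+ saline, 373 and 362 on MT+/+ DOX, 65.4 and 64.1 on MT-/- saline and 55.7 and 62.0 on MT-/- DOX with probe set 1422919_at. Its other probe set, 1428991_at, read between 180 and 223 on MT+/+ arrays and between 52.4 and 60.0 on MT-/- arrays. The differences were log2 -2.27 ± 0.09 (4.82-fold) and -1.60 ± 0.09 (3.04-fold). On MT-/- arrays both lay between percentiles 31.2 and 40.5, under the array median. The former difference was -2.52 with 1 added to the intensity before taking log2 and -1.75 with 64 added, in place of 16.

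Rbp7 was higher on the MT-/- arrays. Its probe set 1449461_at read 440 and 476 on MT+/+ saline, 435 and 418 on MT+/+ DOX, 2170 and 1101 on MT-/- saline and 2393 and 2061 on MT-/- DOX. MT-/- saline 2 stood below the other MT-/- arrays, although above all MT+/+ arrays. It is also the array whose 12 genes of RNA quality and handling stood highest, and the part of that in this value was not tested. The difference of log2 2.03 ± 0.19 (4.08-fold) became 2.27 without that array, and the range over the 16 alternatives was 1.79 to 2.27. Atp10d read 59.8 and 70.9, 65.4 and 74.1, 149 and 188, and 221 and 167 in the same order of groups with probe set 1436544_at. The genotypes did not overlap, at log2 1.23 ± 0.12 (2.35-fold). The RefSeq table of this build, which is of strain C57BL/6J, lists Atp10d as a transcribed pseudogene and the other 9 genes as protein coding.

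Genes around these lipid and retinol proteins were not called between genotypes, apart from 1 retinoid gene with the block. They were 15 genes of retinoid handling (median -0.06), 9 of lipid carriers and endothelial fat uptake (-0.02), 16 of phospholipid remodelling (-0.02) and 10 of the flippases and their partners (+0.05). In 3 of these 4 lists, the genes with the smallest p were the retinoid receptor Rxra (+0.26 ± 0.09, limma adjusted p 0.263), the flippase Atp8a1 (-0.68 ± 0.21, 0.226) and Napepld, which makes lipid amides (+0.25 ± 0.09, 0.304). Of 10 endothelial markers 0 were called (1 with the block), and their summed intensity was between 5487 and 7805 on MT+/+ arrays and between 6718 and 7804 on MT-/- arrays. After DOX, Fabp5, a fatty acid carrier, fell (limma adjusted p 3.7e-04), as did Meox2, a factor for fatty acid uptake by the endothelium (-0.79), while Lpl (+0.23) and Cd36 (+0.31) rose, as did the retinoic acid breakdown enzyme Cyp26b1 (+0.80 ± 0.11, 0.0032).

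Nedd1 lay lower on the MT-/- arrays with both of its probe sets. Probe set 1450899_at read 440 and 527 on MT+/+ saline, 387 and 587 on MT+/+ DOX, 176 and 205 on MT-/- saline and 168 and 151 on MT-/- DOX. Probe set 1423196_at read between 198 and 225 on MT+/+ arrays and between 67.7 and 102 on MT-/- arrays. The differences were log2 -1.38 ± 0.14 (2.61-fold) and -1.19 ± 0.08 (2.29-fold), close to each other within their errors. Of 16 genes of the gamma-tubulin ring complex and augmin, Nedd1's partners, 0 were called between genotypes (median +0.01), and 2 with the block, both lower. The smallest p was that of the augmin subunit Haus8 (-0.38 ± 0.09, limma adjusted p 0.132, or 0.0343 with the block).

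Zfp991 gave opposite answers on its probe sets. Probe set 1451477_at read 77.0 and 76.1 on MT+/+ saline, 56.7 and 52.2 on MT+/+ DOX, 322 and 280 on MT-/- saline and 224 and 218 on MT-/- DOX. Probe set 1424784_at read 121 and 186, 90.1 and 119, 39.0 and 42.0, and 31.7 and 36.0 in the same order. The former was higher on all MT-/- arrays (log2 1.76 ± 0.08, 3.39-fold) and the latter lower on all of them (-1.41 ± 0.14, 2.66-fold). Both are annotated to the same sequence accession. A further probe set, 1440518_at, lay between percentiles 10.9 and 20.2, did not pass the filter and had -0.19. For this gene the arrays therefore give no single direction.

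Calr3 was divided in the same way. Probe set 1431255_at read 148 and 159 on MT+/+ saline, 288 and 327 on MT+/+ DOX, 74.9 and 71.0 on MT-/- saline and 184 and 154 on MT-/- DOX, which is lower on MT-/- arrays within each treatment (log2 -0.87 ± 0.09). Probe set 1453233_s_at read 62.4 and 61.2, 133 and 147, 151 and 157, and 448 and 399 in the same order, which is higher on MT-/- arrays (1.31 ± 0.08). Probe set 1453232_at, annotated to the same accession as the latter, went with it (1.17 ± 0.11). The RefSeq promoter table lists 2 starts for Calr3, the ones printed above; which transcript each probe set reads was not tested. Of 14 genes of the calreticulin cycle, 0 were called between genotypes (median -0.02), and 1 with the block. Of 6 male germ cell markers 0 were called, and their summed intensity was between 521 and 640 on MT+/+ arrays and between 523 and 731 on MT-/- arrays.

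Smim10l1 differed on 1 of its 4 probe sets. Probe set 1453208_at read 569 and 583 on MT+/+ saline, 446 and 406 on MT+/+ DOX, 2034 and 2099 on MT-/- saline and 1659 and 1233 on MT-/- DOX (log2 1.76 ± 0.11, 3.39-fold). Probe set 1460464_at, annotated to the same accession, read between 264 and 376 on MT+/+ arrays and between 289 and 473 on MT-/- arrays, so the genotypes overlapped (0.12 ± 0.14, 95% interval -0.20 to 0.43). The other probe sets, 1435523_s_at and 1446155_at, were dim, did not pass the filter and had +0.17 and +0.07.

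**Figure D2:**
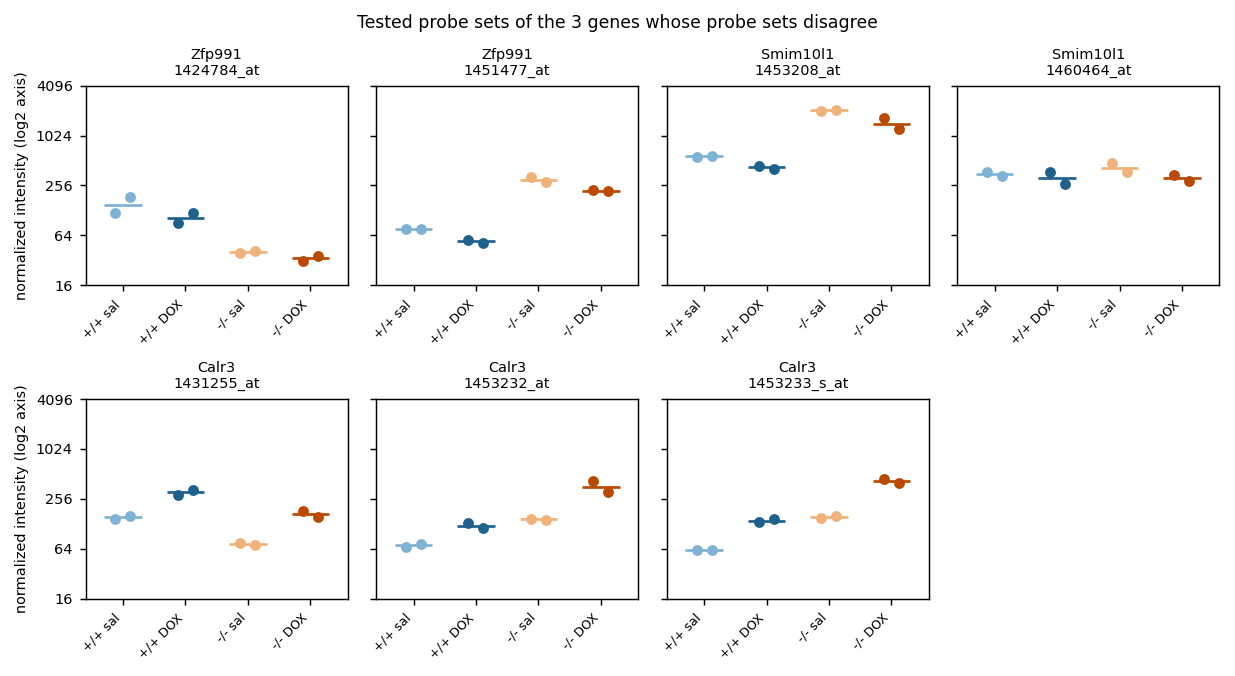
Normalized intensity (vertical axis, log2 spacing) of each tested probe set of Zfp991, Smim10l1 and Calr3 in the 4 groups; points are single arrays and lines geometric means of 2. Zfp991 1424784_at falls to between 31.7 and 42.0 on MT-/- arrays while 1451477_at reaches 218 to 322 there, and Calr3 is divided alike.

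Among the 10 genes, 3 (Cap1, Plaat1 and Nedd1) had all tested probe sets called in the same direction, 2 (Zfp991 and Calr3) had calls in both directions, 1 (Smim10l1) had a call on part of them, and 4 had a single probe set. Over the whole array 103 genes with at least 2 tested probe sets had a genotype call, and 3 of them, or 2.91%, had calls in both directions: Zfp991, Calr3 and Ptp4a2, the last named after its values were seen. For the DOX difference, 10 of 1381 such genes did, or 0.724%. With the block the shares were 2.64% and 2.6%, so this gap between the contrasts closed. All probe sets were called the same way in 16.5% of the former and 21.9% of the latter. Whether sequence differences under the probes set any of these signals was not tested.

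Ocel1 was higher on all MT-/- arrays. Its probe set 1425191_at read 89.0 and 93.0 on MT+/+ saline, 106 and 97.1 on MT+/+ DOX, 282 and 231 on MT-/- saline and 325 and 229 on MT-/- DOX (log2 1.32 ± 0.12, 2.50-fold). Of the 4 tested genes listed around occludin and ELL, among them the elongation factor gene Ell (+0.07 ± 0.10) and the tight junction gene Tjp1 (+0.08 ± 0.10), 0 were called between genotypes. Of 10 genes of zinc finger silencing, the list around Zfp991, 0 were called as well (median -0.02).

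Ocel1, Calr3 and Il15 lie on chromosome 8, as do Mt1 and Mt2. In the gene order of the RefSeq table, 212, 169 and 125 protein-coding genes separate them from the metallothionein pair. Cap1, Zfp991 and Rbp7 lie on chromosome 4, Atp10d on 5, Smim10l1 on 6, Nedd1 on 10 and Plaat1 on 16. Of 673 genes tested on chromosome 8, 14 were called between genotypes (2.08%). On chromosome 16 it was 8 of 394 (2.03%) and on chromosome 4 it was 12 of 796 (1.51%), against 0.824% over all chromosomes. These counts include 3 members each on chromosomes 8 and 4 and 1 on chromosome 16, chosen by this difference, and Mt1 on chromosome 8. Blocked on replicate number, the shares were 7.28% on chromosome 8, 6.53% on chromosome 4 and 4.89% over all. The blocked share of chromosome 16 is not given. Leaving out the members, Mt1 and Mt2, 6 of 300 chromosome 8 genes no farther from Mt1 than Ocel1 on either side were called (2%) and 4 of the other 368 (1.09%). With the block that order turned, at 6.33% and 7.07%. No test of these shares was made.

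The calls among the genes next to the members depended on the fit. Of the 5 nearest tested genes on each side of the 10, 100 in all, 0 passed for the averaged genotype difference by limma, and 21 had an unadjusted p under 0.05, or 21.0% against 13.2% of all genes. With the replicate number as a block 7 passed, against 4.9% of all genes: Ppt1, Inpp4b, Rnf150, Hal, Haus8, Pgd and Ybx3. They lay between log2 -0.41 (Rnf150, near Il15) and +0.73 (Ppt1, near Cap1). Beside Il15 stood Usp38 (-0.04 ± 0.11) and Inpp4b (+0.72 ± 0.17, limma adjusted p 0.130, or 0.0185 with the block) on one side and Zfp330 (+0.29 ± 0.17) and Rnf150 (-0.41 ± 0.10, 0.114, or 0.0141 with the block) on the other. Calr3 had Eps15l1 (-0.03 ± 0.09) and 1700030K09Rik (-0.10 ± 0.09) next to it, and Ocel1 had Use1 (-0.15 ± 0.09) and Nr2f6 (+0.01 ± 0.15).

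**Figure D3:**
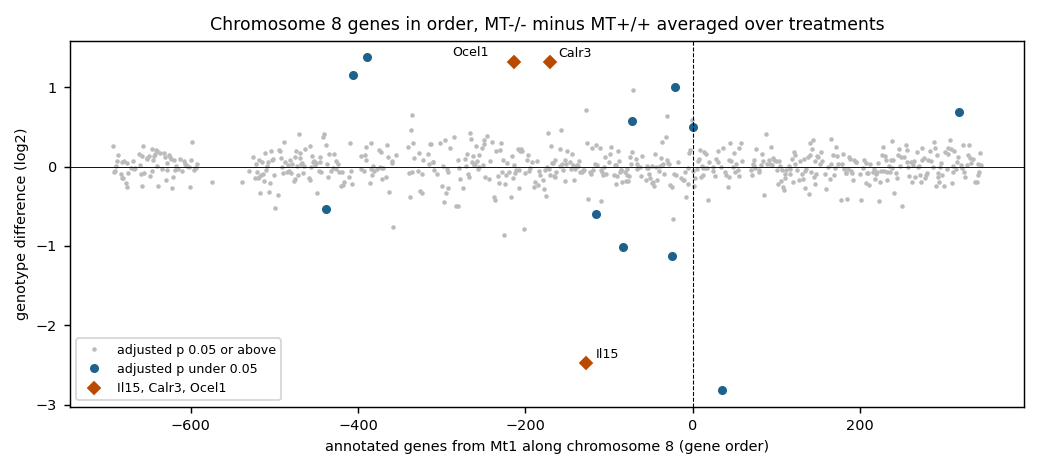
Averaged genotype difference (vertical axis, log2) of the tested chromosome 8 genes against their place in gene order counted from Mt1 (horizontal axis); grey points had an adjusted p of 0.05 or above, blue points passed, and diamonds are Ocel1, Calr3 and Il15. The diamonds stand at 1.32, 1.31 and -2.47 on the same side of Mt1, with blue points of other genes between them and Mt1.

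The genotype difference had the same sign under saline and under DOX for the 16 member probe sets called on average. Under saline 13 of the 17 passed (7 higher and 6 lower, against 0.186% of all, 0.109% higher and 0.0768% lower), and under DOX 14 (9 and 5, against 0.283%, 0.149% higher and 0.133% lower); these contrasts too go into the choice, and nothing is read from them. Cap1 1417461_at differed by log2 3.07 ± 0.15 under saline and 2.65 ± 0.15 under DOX, and Il15 by -2.56 ± 0.18 and -2.38 ± 0.18. Rbp7 differed by 1.72 ± 0.27 and 2.34 ± 0.27, and Calr3 1453232_at by 0.89 ± 0.16 and 1.45 ± 0.16. The interaction term (DOX minus saline on MT-/- arrays, less the same on MT+/+ arrays) was largest in size for Rbp7 (+0.62 ± 0.38), Calr3 1453232_at (+0.56 ± 0.22) and Cap1 1417461_at (-0.42 ± 0.21). None of the 24751 probe sets passed for the interaction by limma (0%), and 572 had an unadjusted p under 0.05 (2.31%). Among the 17 members 1 had such a p, Calr3 1453232_at. Choosing genes for a stable difference favours small interactions, and a p that misses the threshold does not show that the genotypes responded alike: for Rbp7 the 95% interval was -0.24 to 1.48.

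**Figure D4:**
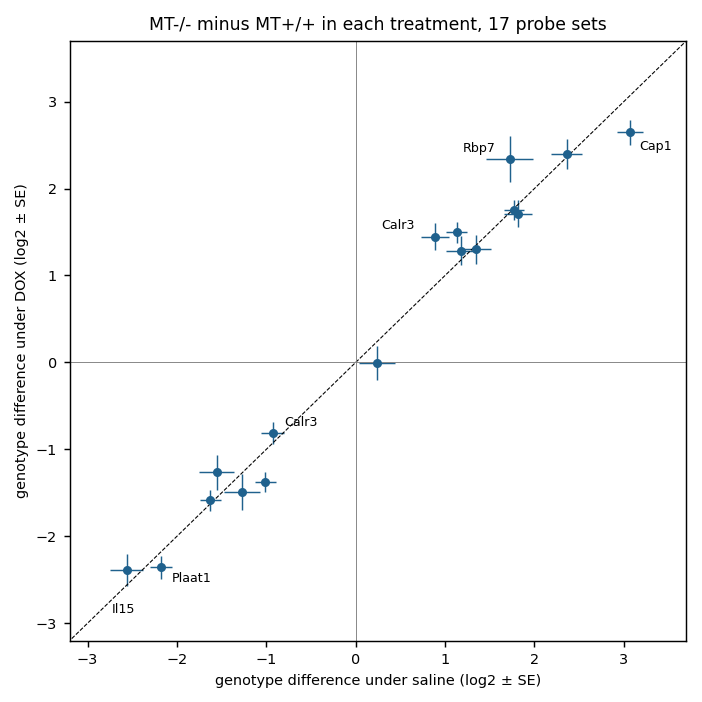
Genotype difference, MT-/- minus MT+/+, under DOX (vertical axis, log2) against that under saline (horizontal axis, log2) for the 17 tested probe sets; bars are limma standard errors and the dashed line marks equal differences. Cap1 stands at 3.07 and 2.65 and Il15 at -2.56 and -2.38, near the line, with Rbp7 (1.72 and 2.34) farthest above it.

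The genes were chosen by their genotype difference, and the DOX difference was tested. The choice was made with earlier results of these data known, so its independence from the DOX values is not established. Averaged over genotypes, 6 of the 17 probe sets passed (3 higher and 3 lower), against 13.9% of all tested (7.03% higher and 6.84% lower). The 3 that rose all belong to Calr3. Members' median was log2 -0.12, against 0.00 over all probe sets. With the replicate number as a block, which treats same-numbered arrays as paired, 10 of the 17 passed, against 27.1% of all. The labels do not state such a pairing.

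Calr3 rose after DOX with all of its probe sets, including the one that is lower on MT-/- arrays. The rises were log2 0.99 ± 0.09 for 1431255_at (1.99-fold, limma adjusted p 4.2e-04), 0.94 ± 0.11 for 1453232_at (1.92-fold, 0.0012) and 1.18 ± 0.08 for 1453233_s_at (2.27-fold, 1.5e-04). In each genotype both DOX arrays lay above both saline arrays on every Calr3 probe set. The share of all probe sets with such an order was not counted, so nothing is read from it. In MT+/+ alone the values were 0.94, 0.66 and 1.0 (adjusted p 0.0113, 0.0663 and 0.0066), and in MT-/- 1.05, 1.22 and 1.37 (0.0033, 0.0038 and 9.0e-04). The count of member calls in MT+/+, 2 higher and 0 lower against 2.48% of all (1.22% higher and 1.26% lower), both of Calr3, fell to 0 without MT+/+ saline 2 or MT+/+ DOX 2 and to 1 without MT+/+ saline 1, and was 5 with the block. In MT-/- it was 3 higher and 0 lower against 6.21% (2.83% and 3.38%), all of Calr3, and 9 with the block. Of 14 other chaperones of the calreticulin cycle, 3 were called, where 14.8% of all genes were, and 5 with the block, where 28.3% were. P4hb (+0.35 ± 0.08) and Clgn (+0.47 ± 0.12) rose and Mogs fell (-0.39 ± 0.08), with a median of -0.06 over the 14.

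Il15 fell after DOX by log2 0.65 on average (1.57-fold; standard error 0.13, limma adjusted p 0.0127). The value was -0.74 among arrays numbered 1 and -0.57 among arrays numbered 2. In MT+/+ alone it was -0.74 ± 0.18 (adjusted p 0.0783) and in MT-/- -0.56 ± 0.18 (0.120), both short of the threshold without the block. With the block the averaged fall had a limma adjusted p of 4.0e-04, and blocked values by genotype are not given here. Irf1 fell too (-0.45 ± 0.12, 0.0391), the only 1 of the 14 genes of this route that was called, against 3 with the block. Of 10 macrophage markers 9 fell, where 1015 of all 13008 genes did, with a summed intensity of 9146 to 11423 under saline and 4978 to 6325 under DOX. Of 10 fibroblast markers 7 fell (16694 to 20256 against 10297 to 11970). With the block 8 of them fell and 1 rose, where 1920 of all genes fell and 1765 rose. Without the block, 6 macrophage markers fell in MT+/+ and 2 in MT-/-. Other lists held falls too, averaged over genotypes and without the block. They were 5 of 12 cardiomyocyte, 2 of 10 endothelial, 2 of 7 smooth muscle and pericyte, 2 of 5 red cell and 2 of 4 skeletal muscle markers, with 0 higher. The atrial, T and natural killer, B cell and adipocyte lists had 0 called lower. The part of any of these cell types in the fall of Il15 was not tested.

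Zfp991 1451477_at fell by log2 0.40 (1.32-fold; standard error 0.08, limma adjusted p 0.0132), a call lost without MT+/+ DOX 2 (adjusted p 0.0521) or MT-/- saline 1 (0.0646). Its opposed probe set 1424784_at had -0.33 ± 0.14 (0.172, or 0.0335 with the block), the same sign. Smim10l1 1453208_at fell by 0.47 (1.39-fold; standard error 0.11, adjusted p 0.0255). Leaving out any single array but MT-/- DOX 1 ended the call (adjusted p 0.0513 to 0.0866) as did median centring (0.0540). Its probe set 1460464_at had -0.27 ± 0.14 (0.254, or 0.0370 with the block).

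Cap1 did not pass for DOX, at log2 -0.29 ± 0.10 (limma adjusted p 0.103) and -0.33 ± 0.12 (0.117) on its probe sets. Both passed with the block (0.0354 and 0.0216) and without MT+/+ saline 2 (0.0466 and 0.0401). Plaat1 had -0.02 ± 0.09 and -0.10 ± 0.09, Nedd1 -0.22 ± 0.08 and -0.12 ± 0.14, Ocel1 +0.11 ± 0.12, Rbp7 +0.21 ± 0.19 and Atp10d +0.13 ± 0.12, and none of these passed with or without the block. The 95% interval of Plaat1 1422919_at was -0.23 to 0.19 and that of Rbp7 -0.22 to 0.64.

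**Figure D5:**
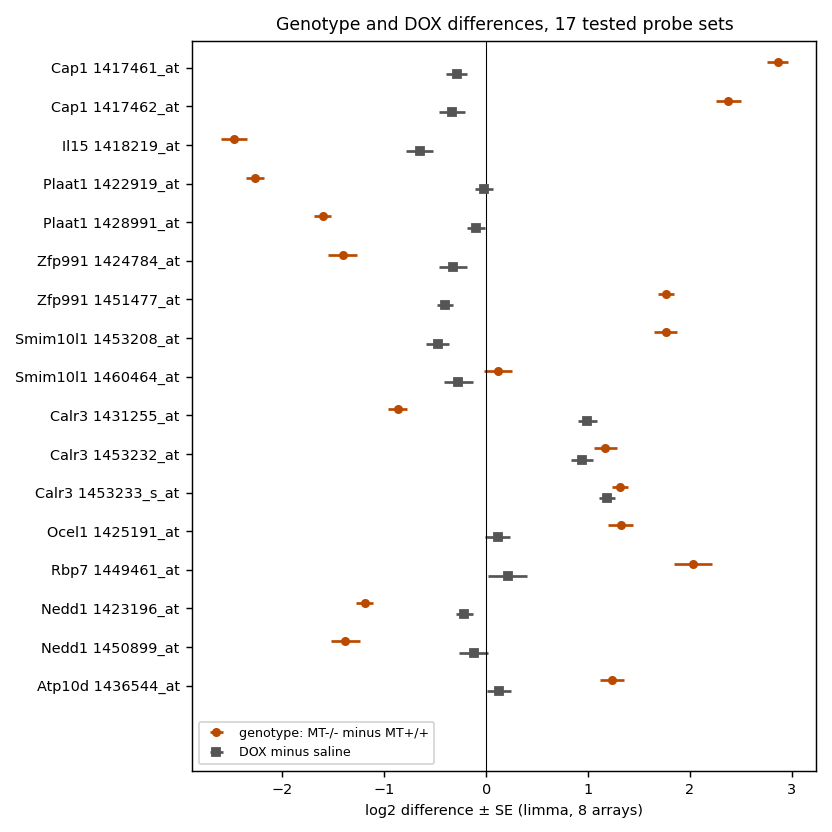
Genotype difference (MT-/- minus MT+/+, circles) and DOX difference (DOX minus saline, squares) on the horizontal axis in log2 units with limma standard errors, for the 17 tested probe sets. Circles reach from -2.47 (Il15) to 2.86 (Cap1), whereas squares stay between -0.65 (Il15) and 1.18 (Calr3), where all Calr3 squares are positive.

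By Pearson correlation over the 8 arrays, the 5 genes most like Cap1 1417461_at were Gdpd1 (r -0.988), Ifnar1 (0.987), Zfp991 1451477_at (0.985), Arhgap31 (-0.984) and Dcun1d1 (-0.984). Their genotype differences were log2 -0.92, 0.45, 1.76, -1.01 and -0.53. For Il15 they were Kif23 (0.989), Frg1 (-0.983), Ndrg4 (0.980), Adgrl1 (0.979) and 6820431F20Rik (-0.975), with -0.44, 1.15, -2.81, -0.43 and 0.83. Ndrg4, Adgrl1 and Frg1 also lie on chromosome 8, at 35, 109 and 406 places from Mt1 in gene order, as does Il15 itself, at 127 places. Ndrg4 lies on the other side of Mt1 from Adgrl1, Il15 and Frg1. Chromosome 8 holds 673 of the 12386 genes tested over all chromosomes. How many of the genes most like Il15 beyond these 5 lie on it was not counted. The 8 points fall into the 2 genotypes, so these correlations mostly repeat that split: 113 genes had an r above 0.9 in size with Cap1 and 137 with Il15.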

How the data were processed

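The deposited values are 1 linear intensity per probe set and array, made by the authors with GCOS 1.4, per the submitters' processing notes. No source used here gives the signal algorithm, the scaling target or detection calls. Array medians lay between 80.1 and 87.5 and the number of arrays limits the precision. Of 45101 probe sets, 64 Affymetrix controls were left out. Arrays were quantile-normalized, since their means after trimming 2% at each end differed by up to 8.08%, and intensities in the text are these normalized values. Tests used log2(intensity + 16), which understates changes of dim probe sets. The 24751 probe sets that reached the median of the array on 2 or more of 8 arrays were fitted with limma 3.58.1 in R 4.3.3 (4 group means, all 8 arrays, eBayes with trend, 4 residual and 4.66 prior degrees of freedom). P-values are two-sided with Benjamini-Hochberg adjustment over all probe sets tested. The code was tested on simulated data.

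Every probe set of the members is given. A gene of a list, a neighbour or a like gene is read by its tested probe set with the highest mean, and up to 4 genes per list with the smallest p are named. Gene symbols are those of the platform annotation; 34754 of 34958 matched the RefSeq table (GRCm38.p6) by Entrez number and 0 differed. The members and lists were chosen with earlier results of these data known. Labels call the replicates biological. Deviations of same-numbered arrays correlated between every pair of the 4 groups (0.36 to 0.542). A second fit therefore treated the replicate number as pairing the arrays, as a block. P-values are from the fit without the block unless the block is named. Blocked results are given for averaged member calls that changed and for counts. They are not given for single probe sets within a genotype or a treatment. That the arrays with a number share a day or litter is not stated. Alternatives were the deposited scaling, median centring, pseudocounts of 1 and 64, no filter, a stricter filter (the brightest tertile by mean), no trend, the block, only the compared groups, and leaving out each array. The blocked counts for neighbours, lists, chromosomes and opposed probe sets were added after seeing the data.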

Additional observations from a re-analysis of the deposited data

How the results depend on the processing

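All 16 member probe sets with an averaged genotype call kept it, with the same sign, under every alternative that tested them; the stricter filter tested 14 of the 17. Of the 6 DOX calls averaged over genotypes, the 3 of Calr3 and that of Il15 kept it (Il15 up to adjusted p 0.0495 by limma). The losses for Zfp991 and Smim10l1 are given above; no value with a call changed sign. Blocking on the replicate number gave member calls of 10 against 6 for DOX averaged, 5 against 2 for DOX in MT+/+ and 9 against 3 for DOX in MT-/-; the paired fit left the averaged genotype count at 16 and raised it to 16 under saline (from 13) and under DOX (from 14), with 0 for the interaction. For the averaged DOX difference it added the calls of Cap1, Zfp991 1424784_at and Smim10l1 1460464_at given above, and it changed no other averaged call of a member; its counts for neighbours, lists and chromosomes stand with those results. Over all probe sets the block raised the calls for genotype averaged from 224 to 1202. The pseudocount moved the genotype difference of Cap1 1417461_at from 3.15 (1 added) to 2.26 (64 added), against 2.86, and that of Il15 from -2.74 to -1.93. With 1 array left out, member calls ranged from 7 to 14 for genotype under saline (7 without MT+/+ saline 2 or MT-/- saline 1, 8 without either other saline array), from 8 to 14 for genotype under DOX (8 without MT+/+ DOX 2), from 0 to 3 for DOX in MT+/+ and from 4 to 7 for DOX averaged; a group left with 1 array was assumed to vary like the others. The cause of these changes was not tested, beyond fewer arrays. Without detection calls, low signals have no known floor, which bears on the folds of Cap1, Il15, Plaat1, Zfp991, Atp10d, Calr3 and Nedd1 1423196_at, each under the array median on some arrays.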
